A study of Mus musculus with 14 samples.

Results

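Chemokines and their receptors were examined in the mouse uterus as a set of 27 genes. The set was taken by symbol: every gene with a probe in the authors' processed values whose symbol marks it as a CC, CXC, CX3C or XC chemokine, a receptor of one of these classes, or an atypical chemokine receptor (Ackr). It held 17 ligands, of which 9 were CC, 6 were CXC, 1 was CX3C (Cx3cl1) and 1 was XC (Xcl1), together with 7 signalling receptors and 3 atypical receptors. They were 27 of the 10544 genes with a named probe, and all 27 were among the 10478 genes that passed the filter on detection and were tested. Of the 27, 12 were detected on every array, while Cxcl15 and Cxcr3 were detected on non-pregnant arrays only and so passed the filter through that group.

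RNA from whole uterus of C57BL/6 mice of 8 weeks was hybridised to 14 Illumina BeadChip arrays in 3 groups. The first group, of 4 arrays, came from pregnant mice given PC61, an antibody against CD25 (a chain of the interleukin-2 receptor) used to deplete regulatory T cells, at 12 days after fertilization. The second, of 5 arrays, came from pregnant mice given PBS, the vehicle, at the same stage, and the last, of 5 arrays, from non-pregnant mice with no treatment named. The series design asks how Treg-depleted uterus differs from PBS-treated uterus. The labels number the replicates without saying that each is a separate animal, and they name no batch, so the p-values reflect array-to-array spread, which may be technical. Smtn, a gene of contractile smooth muscle such as the uterine wall, was detected on every array, and the PBS arrays also held trophoblast RNA. A difference between groups in this bulk RNA can come from fewer cells of a type or from less RNA per cell, which cannot be told apart.

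Between 16607 and 19729 probes were detected on an array, and median intensity lay between 93.0 and 139. Pairs of PC61 arrays correlated at 0.861 to 0.980 across genes, pairs of PBS arrays at 0.971 to 0.987 and pairs of non-pregnant arrays at 0.939 to 0.989. The median SD of a member was 0.776 in the PC61 group, 0.227 in the PBS group and 0.359 in the non-pregnant group on the log2 scale, against 0.407, 0.245 and 0.253 for all genes tested. In trophoblast markers PC61 array 4 stood apart from PC61 arrays 1 to 3. The mean level of 8 measured markers was 0.28 above the PBS mean on array 4. It was -4.70, -4.46 and -2.88 from that mean on arrays 1, 2 and 3. Across all genes the split was another: PC61 arrays 2 and 3 correlated at 0.980, while arrays 1 and 4 reached at most 0.894 with any other PC61 array. Foxp3, which directs the regulatory T cell fate, differed by -0.06 (adjusted p = 0.886) between the PC61 and PBS groups, so no difference in Foxp3 was detectable between them. Its probe averaged 9.38 on PC61, 9.44 on PBS and 9.42 on non-pregnant arrays, while the T cell markers Cd3e and Cd3g were detected on no PBS array. Whether this probe reads regulatory T cells here is therefore uncertain, and it cannot show whether they were depleted.

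Chemokines are small secreted proteins that direct the movement of leukocytes along gradients. Their signalling receptors couple to inhibitory G proteins, and the atypical receptors bind chemokines without such signalling and remove or redistribute them. In the mouse decidua, the stromal tissue that forms around the implanting embryo, genes for chemokines that attract effector T cells, such as Cxcl9 and Ccl5, are known to be silenced, with repressive marks placed on H3K27 by polycomb repressive complex 2. Uterine NK cells, macrophages and trophoblast carry chemokine receptors and make several of the ligands.

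RefSeq windows of the 250 bases before the transcription start were on hand for 22 of the 27 members, in 25 windows. Ccl4, Ccl5, Ccl7, Ccl11 and Cxcl16 had no window and could not be searched. The windows were searched on both strands for 2 NF-kB motifs, GGGANTTCC and a looser one (GGG, any 3 bases, then TTCC), for the interferon gamma activated site TTCNNNGAA and for an interferon response element (GAAA, any 2 bases, then GAAA). The first NF-kB motif was found in the window of Cxcl9, among 1.43% of all 32851 windows of this length, and the second in those of Cxcl1 and Ccl9, among 4.65% of all windows. These 3 promoters are shown because they hold the NF-kB matches and their genes lay above every PBS array on PC61 arrays 2 and 3. Capitals mark the motif matches. Cxcl14 also lay above every PBS array there, and its window, which holds matches of the other motifs, is not shown. Positions are GRCm38.p6: Cxcl9 at chr5:92328080-92328329 on the minus strand, Cxcl1 at chr5:90890995-90891244 on the plus strand and Ccl9 at chr11:83578637-83578886 on the minus strand.
Cxcl9: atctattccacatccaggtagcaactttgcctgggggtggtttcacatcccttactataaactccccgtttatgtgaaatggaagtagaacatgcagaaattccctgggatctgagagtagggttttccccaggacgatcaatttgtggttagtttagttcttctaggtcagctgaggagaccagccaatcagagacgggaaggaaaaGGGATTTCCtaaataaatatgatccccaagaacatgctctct
Cxcl1: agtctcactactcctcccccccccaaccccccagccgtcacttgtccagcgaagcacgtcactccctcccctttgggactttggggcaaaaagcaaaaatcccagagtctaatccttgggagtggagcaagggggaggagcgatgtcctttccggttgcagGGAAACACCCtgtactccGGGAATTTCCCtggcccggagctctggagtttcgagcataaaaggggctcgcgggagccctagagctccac
Ccl9: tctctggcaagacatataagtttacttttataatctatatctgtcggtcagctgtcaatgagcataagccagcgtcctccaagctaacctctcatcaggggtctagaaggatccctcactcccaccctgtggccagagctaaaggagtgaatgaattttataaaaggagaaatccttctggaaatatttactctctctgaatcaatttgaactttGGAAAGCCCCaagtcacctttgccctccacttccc
In Cxcl9 the match lies 42 to 34 bases before the start. In Cxcl1 a match lies at 89 to 80 bases, and another at 71 to 62 overlaps one on the opposite strand at 70 to 61. In Ccl9 it lies at 35 to 26 bases. The interferon gamma activated site was in the windows of Ccr1l1 and Cxcl14 (7.02% of all windows) and the interferon response element in that of Cxcl14 (2.98%). A match is a run of letters and shows no binding.

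After PC61, chemokine ligand genes lay mostly above the PBS range on 2 of the 4 arrays and on both sides of it on the other two, and no member passed the test against PBS. Of the 17 ligands, 13 lay above every PBS array on PC61 array 2 and 13 on array 3, against 32.1% and 31.6% of all genes. On PC61 arrays 1 and 4 it was 6 and 4 ligands, against 33.8% and 15.5%. Below every PBS array lay 6, 1, 1 and 6 ligands on PC61 arrays 1 to 4, against 23.8%, 30.8%, 32.5% and 19.4% of all genes. Some of these low values were not detected: those of Ccl6, Ccl25, Cxcl9 and Cxcl15 on array 1 and of Cxcl9 and Cxcl15 on array 4. Their places below the PBS range lie near the detection floor and may be noise. Of the 10 receptors, 5, 5 and 4 lay below every PBS array on PC61 arrays 1, 2 and 3 and 0 on array 4, while 1, 4, 2 and 5 lay above every PBS array on arrays 1 to 4. Ligands had a median log2 fold change of 0.57, with 14 of 17 above 0, the 7 signalling receptors had a median of -0.15 and the 3 atypical receptors of 0.01. The median of all 27 was 0.33, against 0.01 for all genes tested, and 19 of 27 were above 0, where 51.5% of all genes were. By limma, 0 of 27 members were called at an adjusted p under 0.05, as were 0% of the 10478 genes, and the lowest adjusted p of a member was 0.162. At an unadjusted p under 0.05 there were 9 of 27 members, 6 above and 3 below the PBS mean, against 15.5% of all genes, 7.32% above and 8.15% below. The PC61 and PBS arrays did not overlap for Ackr3 and Ccl11, 2 of 27 members, against 1.81% of all genes. As a distance from its average over the PBS arrays, the mean ligand level came to -0.03, 0.97, 1.18 and -0.11 in replicates 1 to 4 of the PC61 group, spanned -0.09 to 0.13 among PBS arrays and spanned 1.00 to 1.26 among non-pregnant ones.

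The count between PC61 and PBS arrays turned on array 4. Without it, 11 of 27 members were called, against 14.6% of all genes: Ccl4, Ccl5, Ccl9, Ccl28, Cxcl1, Cxcl16 and Xcl1 were higher and Ackr2, Ccr1l1, Cxcr1 and Cxcr2 were lower. This array lay nearest the PBS arrays for several of these genes, so leaving it out favours such calls. Weighting arrays by their fit called 19 of 27, against 38.4% of all genes. Such weights favour arrays that fit together, and PC61 arrays 2 and 3 correlated at 0.980, closer than any other PC61 pair. The log2 fold change of Ccl4 went from 1.63 to 2.59 with them, so these calls lean on arrays 2 and 3. Median scaling called Ccr1l1 alone, against 2.89% of all genes. Median scaling moved the median of all genes to -0.30 for PC61 against PBS, 0.16 for PBS against non-pregnant and -0.15 for PC61 against non-pregnant arrays, and member values under it are to be read against those shifts.

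**Figure D1:**
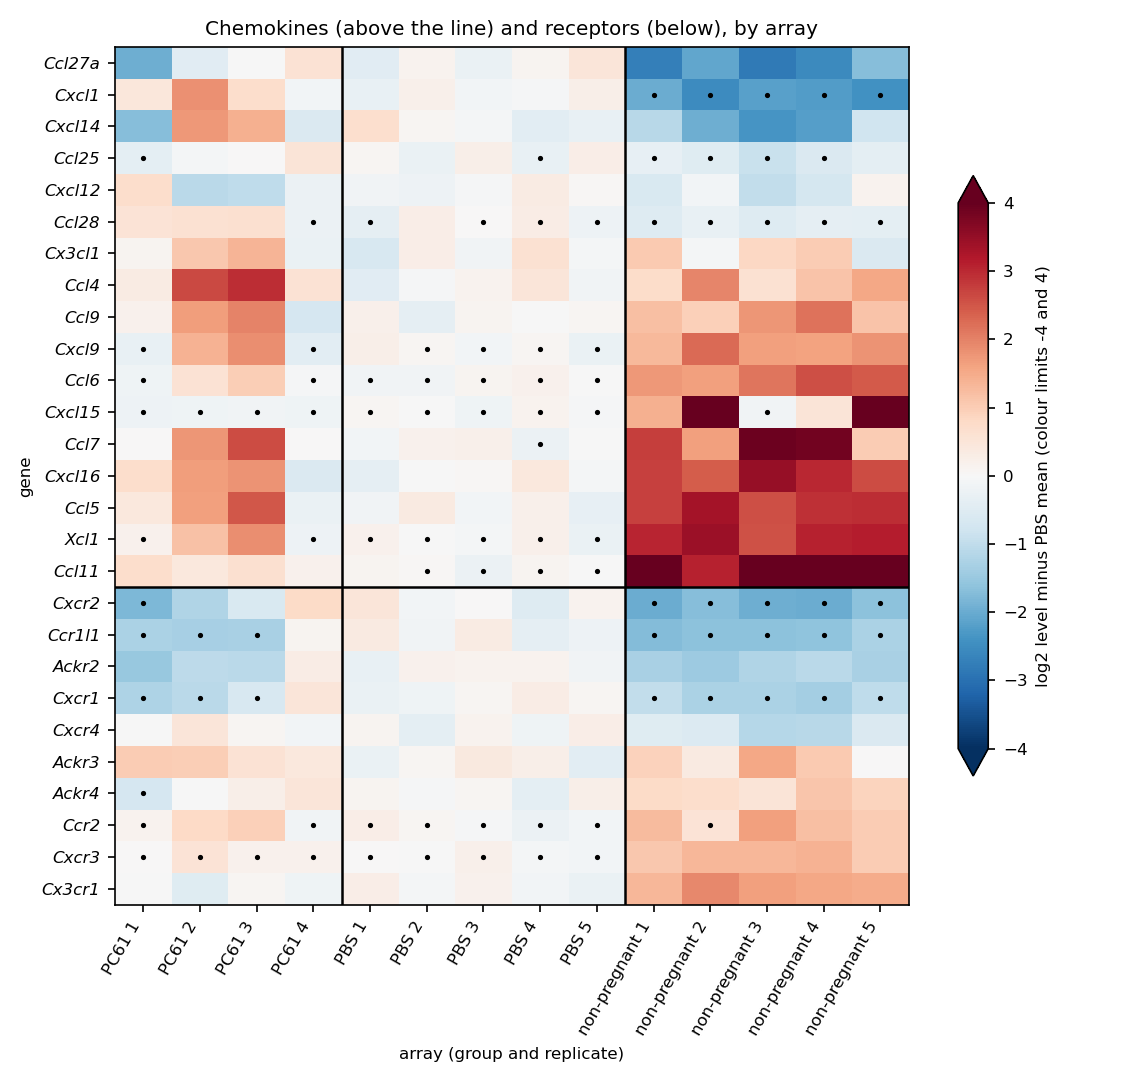
Log2 level of each member (rows) on each of the 14 arrays (columns) minus its mean on the PBS arrays, red above and blue below, with colours limited at -4 and 4. A dot marks an array on which the gene was not detected at p under 0.01. Among the ligands, PC61 arrays 2 and 3 are red in many rows where PC61 arrays 1 and 4 are pale, and the non-pregnant arrays are red in the rows of Ccl4 to Ccl11 and blue in those of Ccl27a, Cxcl1 and Cxcl14.

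On the PBS arrays of pregnant mice, 10 of 17 ligands were lower than on the non-pregnant arrays. Cxcl1, Cxcl14, Ccl25, Ccl27a and 4 signalling receptors were higher. These groups differed in the PBS treatment as well as in pregnancy, and the 2 cannot be told apart. From the PBS average, non-pregnant arrays lay at -5.25 to -5.09 in trophoblast markers and at -8.60 to -8.03 in erythroid and yolk sac markers. The part of such RNA in these differences was not tested. Limma called 24 of 27 members, 9 higher and 15 lower, where 46.6% of all genes were called, 22.9% higher and 23.7% lower. The 15 lower include Cxcl15 and Cxcr3, which passed the detection filter through the non-pregnant arrays alone. Without the non-pregnant arrays Ccl6, Ccr2, Cxcl9 and Xcl1, also among the lower, would have missed that filter. Without the PBS arrays Ccr1l1, Cxcr1 and Cxcr2, among the higher, would have missed it. The filter thus favoured the direction of the calls of all these members from the outset. By class, 4 ligands were higher and 10 lower of 17, 4 signalling receptors higher and 3 lower of 7, and 1 atypical receptor higher and 2 lower of 3. The median log2 fold change was -0.80 over the members and -1.44 over the ligands, against -0.03 for all genes. PBS and non-pregnant arrays did not overlap for 22 of 27 members, against 41.2% of all genes. Among the 12 members detected on every array, 10 were called, 4 higher and 6 lower, where 41.2% of the 7789 genes so detected were called. Ccl28, Cx3cl1 and Cxcl12 were not called.

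Against the non-pregnant arrays the PC61 group gave 15 of 27 members called, 6 higher and 9 lower, with 28.3% of all genes called. The 9 lower include Cxcr3, which passed the detection filter through the non-pregnant arrays alone. Without those arrays Ccl6, Ccr2 and Xcl1, also among the lower, would have missed the filter. Ccl28, among the higher, would have missed it without the PC61 arrays. The filter thus favoured the direction of these calls. The median log2 fold change was -0.02, as it was for all genes. PC61 and non-pregnant arrays did not overlap for 11 members, against 21.5% of all genes. This comparison shares its PC61 arrays with the first and its non-pregnant arrays with the second, so the 3 values of a gene are given side by side below and are not independent.

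**Figure D2:**
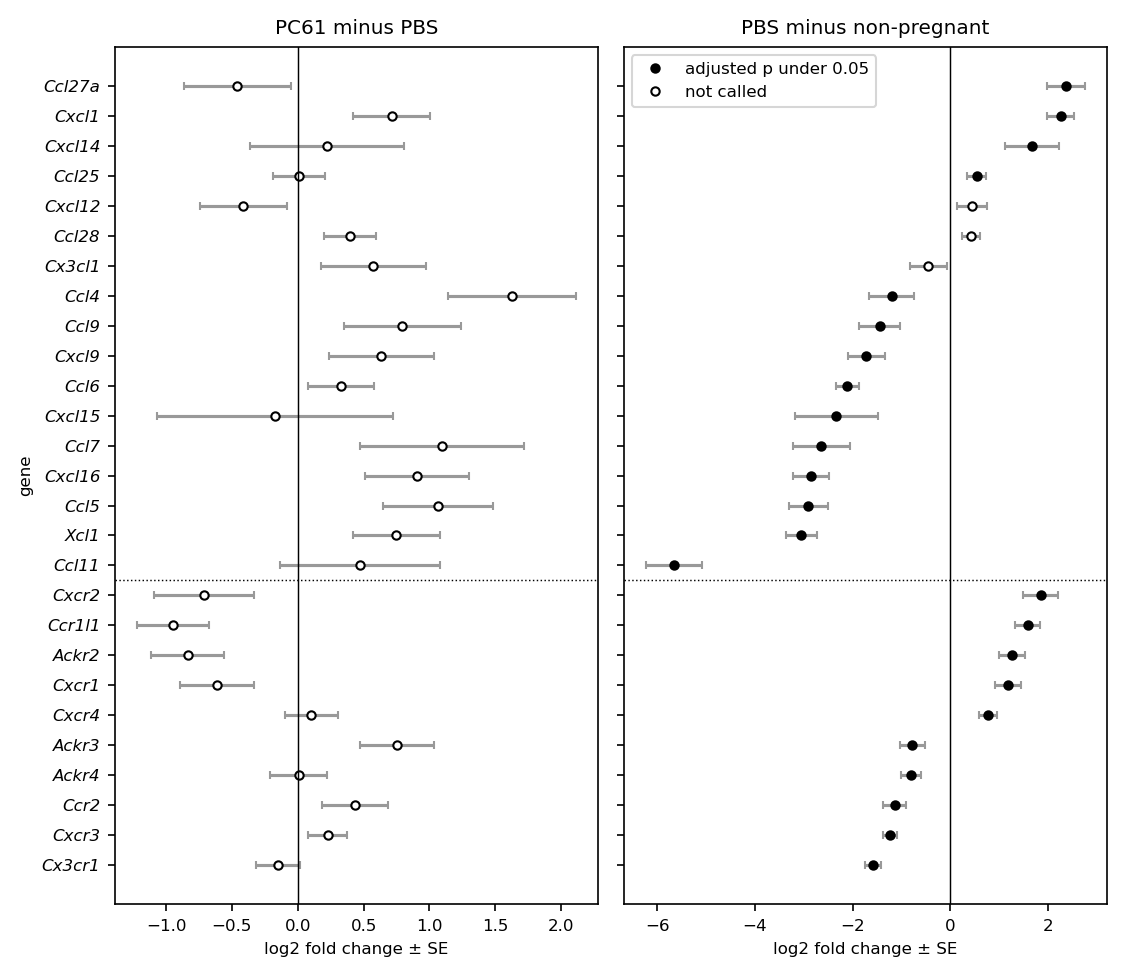
Log2 fold change with its standard error for each member, PC61 minus PBS on the left and PBS minus non-pregnant on the right, on different horizontal scales. Ligands stand above the dotted line and receptors below it. No filled point, which marks an adjusted p under 0.05, appears on the left, and 24 appear on the right, from Ccl11 at -5.67 to Ccl27a at 2.37.

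Ccl5, Cxcl9, Xcl1 and Cxcl16, which lymphocytes make or follow, were lower on PBS than on non-pregnant arrays and were unequal between the PC61 arrays. Ccl5 (RANTES) draws memory T cells and monocytes. Its log2 level was 5.99, 7.22, 8.06 and 5.30 on PC61 arrays 1 to 4, 5.43, 5.94, 5.47, 5.79 and 5.26 on PBS arrays 1 to 5 and 8.31, 8.91, 8.17, 8.50 and 8.52 on non-pregnant arrays 1 to 5. PC61 array 3 reached 8.06, just under the lowest non-pregnant value, array 2 lay between the groups, and arrays 1 and 4 lay at or near the PBS range. For PC61 against PBS the log2 fold change was 1.07 (SE 0.42, adjusted p = 0.254), for PBS against non-pregnant -2.91 (SE 0.39, adjusted p = 4.44e-05) and for PC61 against non-pregnant -1.84 (adjusted p = 0.00451).

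Cxcl9 is induced by interferon gamma and attracts activated T cells and NK cells through Cxcr3. It stood at 4.60, 6.32, 6.78 and 4.49 on the PC61 arrays, 5.14, 5.00, 4.81, 4.98 and 4.64 on the PBS arrays and 6.20, 7.18, 6.55, 6.53 and 6.71 on the non-pregnant arrays, and was detected on PC61 arrays 2 and 3, on PBS array 1 and on every non-pregnant array. PC61 arrays 2 and 3 reached the non-pregnant range and arrays 1 and 4 lay below the PBS range. The log2 fold changes were 0.63 (SE 0.40, adjusted p = 0.45), -1.72 (SE 0.38, adjusted p = 0.00193) and -1.09 (adjusted p = 0.056) in the same 3 comparisons, and the last passed the threshold without PC61 array 2 or without PC61 array 3 (-1.50 to -1.35, adjusted p = 0.00612 to 0.0277). Its receptor gene Cxcr3 was not detected on any pregnant array, at 4.44 to 5.00 on the PC61 and 4.33 to 4.64 across the PBS arrays, and was at 5.53, 5.78, 5.77, 5.83 and 5.47 on the non-pregnant arrays. Cxcr3 was at least 1.48-fold lower on the PBS arrays (adjusted p = 7.94e-06) and at least 1.42-fold lower on the PC61 arrays (adjusted p = 0.000136) than on the non-pregnant arrays. Such a bound sets the brighter group's mean against the detection floor of the dimmer arrays. Cxcr3 passed the detection filter through the non-pregnant arrays alone, so its tests against them favoured a lower level on pregnant arrays from the outset.

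Xcl1 (lymphotactin) is made by NK and T cells and draws cross-presenting dendritic cells. Its levels were 4.77, 5.76, 6.46 and 4.40 on the PC61 arrays, 4.34 to 4.80 across the PBS arrays, none of them detected, and 7.64, 8.01, 7.14, 7.69 and 7.75 on the non-pregnant arrays. It was detected on PC61 arrays 2 and 3 and not on arrays 1 and 4. Xcl1 was at least 5.8-fold lower on PBS than on non-pregnant arrays (log2 fold change -3.05 (SE 0.31, adjusted p = 3.83e-06)) and lower on PC61 than on non-pregnant arrays, at -2.30 (adjusted p = 0.000142). Between PC61 and PBS arrays the bound was at least 1.18-fold and the log2 fold change 0.75 (SE 0.33, adjusted p = 0.304). Cxcl16, a membrane-bound ligand of T and NKT cells, had 7.37, 8.33, 8.47 and 6.10 on the PC61 arrays, 6.31, 6.64, 6.70, 7.09 and 6.57 on the PBS arrays and 9.41, 9.08, 10.14, 9.69 and 9.28 on the non-pregnant arrays. PC61 arrays 1 to 3 lay above every PBS array and array 4 below them all. Its 3 log2 fold changes were 0.91 (SE 0.39, adjusted p = 0.294), -2.86 (SE 0.37, adjusted p = 3.2e-05) and -1.95 (adjusted p = 0.00203), and its other probe had 0.63, -1.64 and -1.01.

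Interferon gamma pathway genes moved with these ligands, and so did genes of several other lists. PC61 arrays 2 and 3 were also the highest PC61 arrays for NF-kB genes (0.83 and 0.71 from the PBS average) and for the interleukin 4 and 13 pathway (0.69 and 1.24). The same held for fibroblast and stromal markers (0.98 and 1.10), while polycomb genes were lowest there (-0.38 and -0.61). The pattern was thus not particular to the interferon gamma pathway. The mean level of the 17 measured interferon gamma pathway genes, again as a distance from the PBS average, came to -0.22, 1.13, 1.43 and -0.10 in replicates 1 to 4 of the PC61 group. It was -0.05 to 0.10 among PBS arrays and 1.04 to 1.32 among non-pregnant ones. The part of these lists in the result was not tested. Of 6 measured T cell markers (of 11 listed), 4 were not detected on any PBS array, among them Cd3e and Cd3g, chains of the T cell receptor complex. On the PC61 arrays Cd3e was detected on 2 and Cd3g on 0. The other two, Foxp3 and Cd8b1, a chain of the CD8 co-receptor, were detected on every array. Cd8b1 averaged 11.42 on PC61, 11.27 on PBS and 11.31 on non-pregnant arrays, and Foxp3 9.38, 9.44 and 9.42 in the same groups. The mean of the 6 markers came to 0.38, 0.28, 0.28 and -0.07 in the PC61 replicates, -0.08 to 0.09 among PBS and 0.48 to 0.97 among non-pregnant arrays. The NK cell list (6 of 12 measured) stood at -2.42, 0.88, 0.78 and 0.07 in the PC61 replicates, -0.20 to 0.13 among PBS and -1.51 to -1.05 among non-pregnant arrays. Its genes were split, with 2 called higher and 2 lower on PBS than on non-pregnant arrays. Gzmd was among the higher, at 7.63 (SE 1.41), and Klrd1 among the lower, at -2.33. The list mean therefore leans on Gzmd and does not stand for every NK cell marker. The part of the T cell and NK cell lists was not tested.

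**Figure D3:**
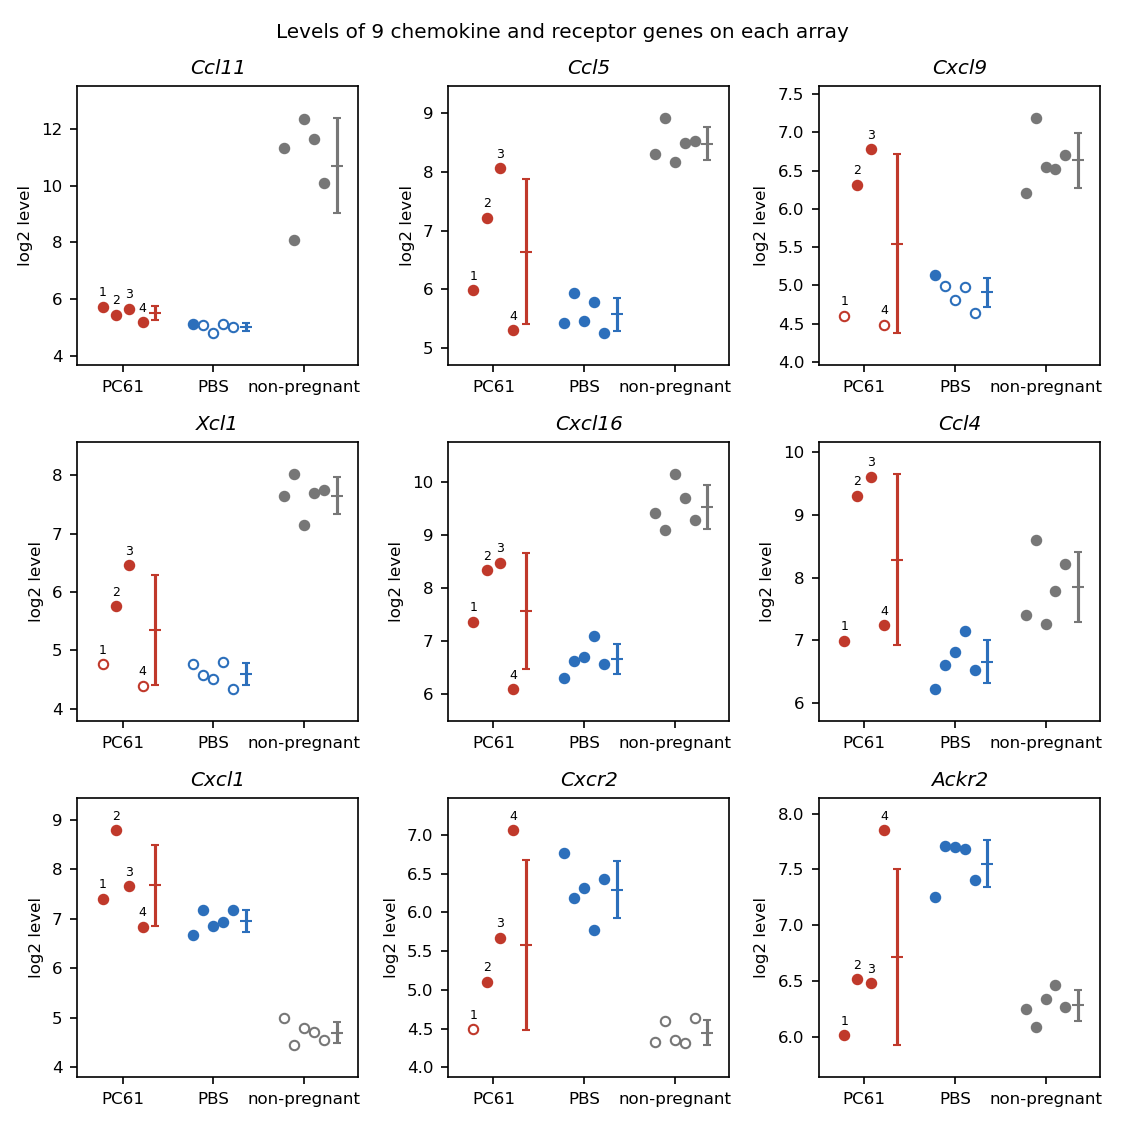
Log2 level of 9 members on each array, with PC61 arrays at the left of each panel (replicate number above each point), PBS arrays in the middle and non-pregnant arrays at the right. Open points were not detected, and bars are the mean and SD. In the panels of Ccl5, Cxcl9, Xcl1 and Ccl4, PC61 arrays 2 and 3 lie above arrays 1 and 4, while for Cxcr2 and Ackr2 array 4 lies above arrays 1 to 3.

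Ccl4, Ccl7 and Ccl9, ligands of myeloid cells, lay above the whole PBS range on PC61 arrays 2 and 3. Ccl4 (MIP-1 beta), which attracts monocytes and T cells, had levels of 7.00, 9.31, 9.61 and 7.24 on the PC61 arrays, 6.22, 6.60, 6.81, 7.14 and 6.53 on the PBS arrays and 7.40, 8.61, 7.27, 7.79 and 8.22 on the non-pregnant arrays. Arrays 2 and 3 exceeded every non-pregnant array, array 4 lay above all PBS arrays by a small margin and array 1 within their range. Ccl4 had the largest log2 fold change of any member between PC61 and PBS arrays, 1.63 (SE 0.49, adjusted p = 0.175). It was lower on PBS than on non-pregnant arrays, at -1.20 (SE 0.46, adjusted p = 0.0456), and stood at 0.43 (adjusted p = 0.545) between PC61 and non-pregnant arrays. The fall at day 12 missed the threshold without PBS array 1, 2, 3 or 5, or without non-pregnant array 2, 4 or 5 (-1.23 to -1.01, adjusted p = 0.0659 to 0.108). It also missed with quantile normalization alone, with median scaling and in the authors' matrix (-0.98 to -0.72, adjusted p = 0.093 to 0.171). Array weights gave Ccl4 1.51 (adjusted p = 0.00123) for PC61 against non-pregnant arrays.

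Ccl7 (MCP-3), a ligand of Ccr2, had 5.48, 7.24, 8.08 and 5.48 on the PC61 arrays, 5.37, 5.64, 5.67, 5.24 and 5.45 on the PBS arrays and 8.23, 7.11, 9.39, 9.35 and 6.49 on the non-pregnant arrays. Arrays 2 and 3 lay inside the non-pregnant range and arrays 1 and 4 inside the PBS range. Its log2 fold changes were 1.10 (SE 0.62, adjusted p = 0.401), -2.64 (SE 0.59, adjusted p = 0.00215) and -1.54 (adjusted p = 0.079), and the last passed without PC61 array 3 or non-pregnant array 5 (-2.05 to -1.95, adjusted p = 0.0225 to 0.0266). Ccl9 (MIP-1 gamma), a mouse ligand of Ccr1 on myeloid cells, had 7.45, 8.94, 9.23 and 6.59 on the PC61 arrays, 7.46, 6.89, 7.36, 7.24 and 7.35 on the PBS arrays and 8.45, 8.20, 9.04, 9.42 and 8.41 on the non-pregnant arrays. Arrays 2 and 3 were in the non-pregnant range, array 1 within the PBS range and array 4 below it. Its values were 0.79 (SE 0.44, adjusted p = 0.395), -1.44 (SE 0.42, adjusted p = 0.011) and -0.65 (adjusted p = 0.298), and the call of PBS against non-pregnant arrays ended with median scaling (-1.24, adjusted p = 0.0505).

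Ccl6, a further mouse ligand of Ccr1, was at 4.42, 5.16, 5.57 and 4.54 on the PC61 arrays, where arrays 2 and 3 were detected, at 4.46 to 4.77 across the PBS arrays, none of them detected, and at 6.34, 6.25, 6.74, 7.17 and 7.03 on the non-pregnant arrays. It was at least 3.02-fold lower on PBS arrays (adjusted p = 7.82e-06) than on non-pregnant arrays, was lower on PC61 than on non-pregnant arrays at -1.78 (adjusted p = 0.0001), and differed by 0.33 (adjusted p = 0.533) between PC61 and PBS arrays. Ccr2, the receptor that brings monocytes out of the bone marrow, had 4.68, 5.34, 5.51 and 4.42 on the PC61 arrays, 4.32 to 4.83 across the PBS arrays and 5.83, 5.09, 6.20, 5.76 and 5.57 on the non-pregnant arrays. It was detected on PC61 arrays 2 and 3, on no PBS array and on 4 non-pregnant arrays. Ccr2 was at least 1.49-fold lower on PBS than on non-pregnant arrays (adjusted p = 0.00126), with 0.43 (adjusted p = 0.405) between PC61 and PBS arrays. It was lower on PC61 than on non-pregnant arrays at -0.70 (adjusted p = 0.0477), a call lost when any 1 of 11 of the 14 arrays was left out, the exceptions being PC61 arrays 2 and 3 and non-pregnant array 2 (-0.73 to -0.52, adjusted p = 0.0555 to 0.145). That call also ended with quantile normalization alone, median scaling, the authors' matrix, array weights, the replicate block and a fit on the 2 groups only (-0.73 to -0.21, adjusted p = 0.0596 to 0.148).

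Cx3cr1, the fractalkine receptor of monocytes and macrophages, had 6.30, 5.85, 6.40 and 6.17 on the PC61 arrays and 6.60, 6.26, 6.51, 6.22 and 6.07 on the PBS arrays, against 7.67, 8.25, 7.97, 7.86 and 7.81 on the non-pregnant arrays. All pregnant arrays lay below all non-pregnant ones, at -1.58 (SE 0.16, adjusted p = 2.73e-06) for PBS and -1.73 (adjusted p = 2.88e-06) for PC61, and the difference between the pregnant groups was -0.15 (SE 0.17, adjusted p = 0.688). The gene of its ligand Cx3cl1 was detected on all arrays, at 6.46 to 8.08 on the PC61, 6.07 to 7.32 on the PBS and 6.15 to 7.77 across the non-pregnant arrays, and was not called in any of the 3 comparisons, though array weights gave -0.74 (adjusted p = 0.0321) for PBS against non-pregnant arrays. Like Cx3cr1, most macrophage markers were lower at day 12: 8 of 9 measured were lower and 1, Csf1r, was higher on PBS than on non-pregnant arrays. Their mean level came to -0.22, 0.46, 1.10 and -0.39 in the PC61 replicates, -0.22 to 0.13 among PBS and 2.00 to 2.40 among non-pregnant arrays as a distance from the PBS average. On PC61 arrays 2 and 3, where this mean was above the PBS range, Cx3cr1 was not, at 5.85 and 6.40. The part of the macrophage markers in these results was not tested.

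Ccl11 (eotaxin-1), which attracts eosinophils through Ccr3 and is made in the uterus under oestrogen, was lower at day 12. Its levels were 5.73, 5.44, 5.66 and 5.20 on the PC61 arrays, 5.14, 5.07, 4.80, 5.13 and 5.02 on the PBS arrays and 11.33, 8.09, 12.36, 11.62 and 10.08 on the non-pregnant arrays. It was detected on every PC61 array and on PBS array 1 alone, so its PBS level and the size of the difference from PBS are approximate. The log2 fold change was -5.67 (SE 0.57, adjusted p = 3.21e-06) between PBS and non-pregnant arrays and -5.19 (SE 0.61, adjusted p = 1.96e-05) between PC61 and non-pregnant arrays. Every PC61 array was above every PBS array, with 5.20 as the lowest PC61 and 5.14 as the highest PBS value, and the log2 fold change was 0.48 (SE 0.61, adjusted p = 0.733). Of 5 measured eosinophil and mast cell markers, 3 were lower and 1 higher on PBS than on non-pregnant arrays. The list mean ranged from -0.33 to 1.29 in the PC61 group, -0.12 to 0.12 among PBS and 0.03 to 0.83 among non-pregnant arrays, and its part was not tested.

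Ligands of neutrophils moved in both directions at day 12. Cxcl1 (KC), a ligand of Cxcr2, was at 7.41, 8.79, 7.66 and 6.84 on the PC61 arrays and 6.67, 7.18, 6.85, 6.93 and 7.19 on the PBS arrays, and was not detected on any non-pregnant array, at 4.45 to 4.99. It was at least 3.43-fold higher on PBS arrays (adjusted p = 1.81e-05) and at least 5.62-fold higher on PC61 arrays (adjusted p = 3.51e-06) than on non-pregnant arrays. PC61 arrays 1 to 3 lay above every PBS array and array 4 within their range, with a log2 fold change of 0.71 (SE 0.29, adjusted p = 0.271). Cxcl15 (lungkine), an epithelial chemokine of mouse, was the reverse: it was not detected on any pregnant array (4.37 to 4.46 on the PC61 and 4.42 to 4.73 across the PBS arrays) and was at 6.00, 8.72, 4.44, 5.10 and 10.35 on the non-pregnant arrays, of which array 3 was not detected. It was at least 3.51-fold lower on PBS than on non-pregnant arrays (adjusted p = 0.0351), a call lost without any 1 of the 5 PBS arrays (-2.36 to -2.28, adjusted p = 0.0567 to 0.0644). It was also lost with quantile normalization alone and in the authors' matrix (-1.24 to -1.21, adjusted p = 0.0719 to 0.075). Between PC61 and non-pregnant arrays its adjusted p was 0.05, and 0.0131 without non-pregnant array 3, 0.0382 with median scaling and 0.0496 with the mean of probes. Cxcl15 passed the detection filter through the non-pregnant arrays alone, so these tests favoured a lower level on pregnant arrays from the outset.

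The receptor genes Cxcr2 and Cxcr1, which neutrophils carry and which lie next to each other on mouse chromosome 1, were detected on all 5 PBS arrays and on no non-pregnant array. Cxcr2 had 4.49, 5.10, 5.67 and 7.06 on the PC61 arrays, 6.76, 6.18, 6.31, 5.77 and 6.44 on the PBS arrays and 4.31 to 4.64 across the non-pregnant arrays. Cxcr1 had 4.45, 4.59, 5.05 and 6.16 on the PC61 arrays, against 5.41, 5.50, 5.74, 5.98 and 5.76 on the PBS arrays, and lay at 4.32 to 4.70 in the non-pregnant group. For both genes PC61 array 4 lay above the whole PBS range and PC61 arrays 1 to 3 below it. PBS arrays were at least 2.16-fold higher than non-pregnant arrays for Cxcr2 (adjusted p = 0.000767) and at least 1.41-fold higher for Cxcr1 (adjusted p = 0.0021). Between PC61 and PBS arrays the log2 fold changes were -0.71 (SE 0.38, adjusted p = 0.377) and -0.61 (SE 0.28, adjusted p = 0.309).

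Against non-pregnant arrays Cxcr2 was at least 1.32-fold higher on PC61 arrays (adjusted p = 0.0367). That call was lost without PC61 array 3 or 4 or any 1 of the 5 non-pregnant arrays (0.65 to 1.19, adjusted p = 0.0512 to 0.0807). It was lost too with quantile normalization alone, median scaling, the authors' matrix, the replicate block and a fit on the 2 groups only (0.39 to 1.18, adjusted p = 0.0507 to 0.092). Cxcr1 was not called there (0.57 (adjusted p = 0.143)) and passed without PC61 array 1 (0.79, adjusted p = 0.0496). Of 5 measured neutrophil markers, 3 were higher and 1 lower on PBS than on non-pregnant arrays. Mpo was among the 3 higher, at 1.83 (SE 0.60, adjusted p = 0.0226), and Lcn2 was not called, at -1.57 (adjusted p = 0.194). The 1 lower was Retnlg, a granule-associated gene of neutrophils, which was not detected on any pregnant array and was detected on all 5 non-pregnant arrays.

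Ccr1l1 and Ackr2 also had their highest PC61 level on array 4. Ccr1l1, a Ccr1-like gene of mouse, had 4.72, 4.65, 4.69 and 6.11 on the PC61 arrays, of which array 4 alone was detected, 6.35, 5.85, 6.33, 5.63 and 5.80 on the PBS arrays and 4.25 to 4.71 across the non-pregnant arrays, none detected. Its log2 fold change of -0.95 (SE 0.27, adjusted p = 0.162) had the lowest p of any member between PC61 and PBS arrays, and PBS arrays were at least 1.75-fold higher than non-pregnant arrays (adjusted p = 0.000218). Ackr2 (D6), which clears inflammatory CC chemokines and is known from mouse trophoblast, had 6.02, 6.52, 6.48 and 7.85 on the PC61 arrays, 7.26, 7.71, 7.70, 7.68 and 7.41 on the PBS arrays and 6.26, 6.09, 6.35, 6.46 and 6.27 on the non-pregnant arrays. PC61 array 4 lay above the PBS range, and arrays 1 to 3 lay within or near the non-pregnant range. Ackr2 was higher on PBS than on non-pregnant arrays by 1.27 (SE 0.26, adjusted p = 0.00125), and stood at -0.83 (SE 0.28, adjusted p = 0.196) between PC61 and PBS and 0.43 (adjusted p = 0.267) between PC61 and non-pregnant arrays.

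Trophoblast RNA moved with Ackr2, Ccr1l1, Cxcr1 and Cxcr2. All 8 measured trophoblast and placental markers (of 12 listed) were higher on PBS than on non-pregnant arrays, and none was called between PC61 and PBS arrays. Their mean lay at -4.70, -4.46, -2.88 and 0.28 from the PBS average in the PC61 replicates, at -0.11 to 0.17 among PBS and at -5.25 to -5.09 among non-pregnant arrays. Synb, a syncytin that fuses trophoblast cells, was detected on 1 PC61 array, 5 PBS arrays and 0 non-pregnant arrays. The 8 smooth muscle markers ran the other way, at 1.33, 1.85, 1.67 and -0.71 in the PC61 replicates, -0.16 to 0.30 among PBS and 0.83 to 1.61 among non-pregnant arrays. The 7 measured erythroid and yolk sac markers lay at -0.41, -3.02, -2.37 and 0.10 in PC61 replicates 1 to 4. They spanned -0.09 to 0.13 among PBS and -8.60 to -8.03 among non-pregnant arrays. They were thus lowest in the PC61 group on arrays 2 and 3, where most ligands lay above the PBS range. The part of these lists in the ligand and receptor results was not tested.

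**Figure D4:**
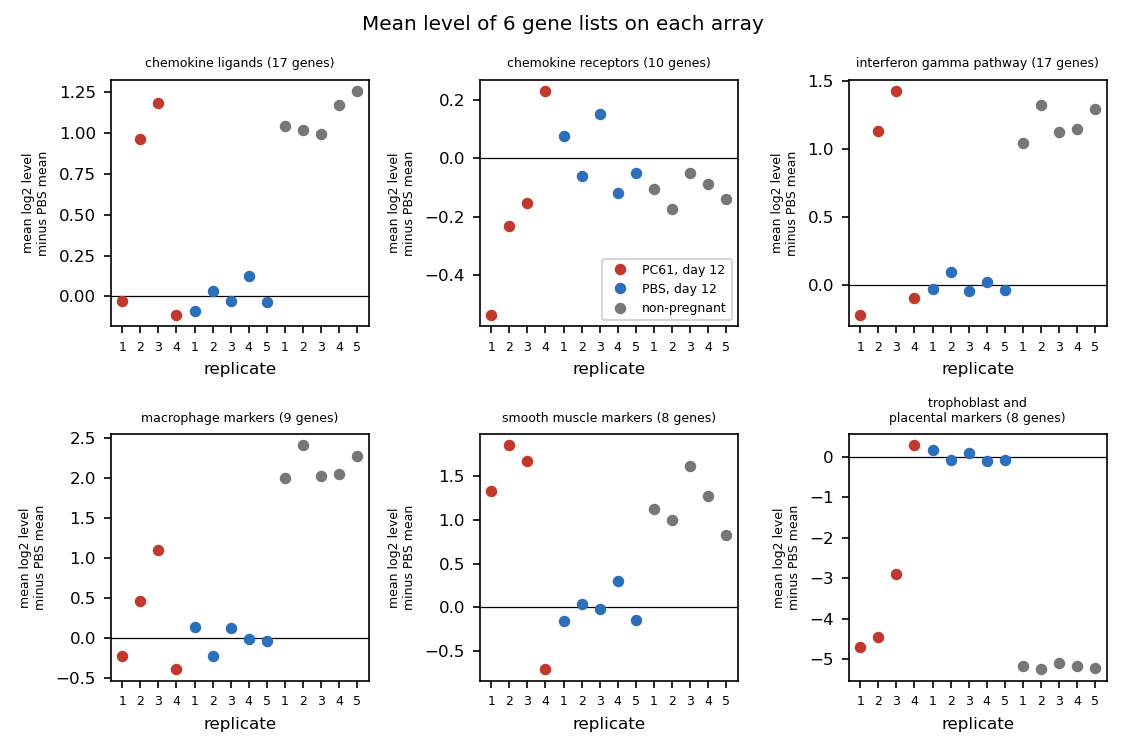
Mean log2 level of 6 gene lists on each array minus the mean of the PBS arrays, with 1 point an array, PC61 at the left, PBS in the middle and non-pregnant at the right, on a vertical scale of its own in each panel. Ligands and interferon gamma pathway genes were high on PC61 arrays 2 and 3, at 0.97 to 1.43. Macrophage markers (0.46 and 1.10) and smooth muscle markers (1.85 and 1.67) also had their highest PC61 values on those arrays. Trophoblast markers were low on PC61 arrays 1 to 3, at -4.70 to -2.88.

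The other atypical receptors had patterns of their own. Ackr3 binds Cxcl12 and removes it. It had 6.81, 6.75, 6.37 and 6.20 on the PC61 arrays, 5.51, 5.85, 6.16, 6.00 and 5.34 on the PBS arrays and 6.70, 6.15, 7.31, 6.81 and 5.78 on the non-pregnant arrays. Every PC61 array lay above every PBS array, with a log2 fold change of 0.75 (SE 0.28, adjusted p = 0.236), and the PC61 arrays lay within the non-pregnant range (-0.02 (adjusted p = 0.968)). Ackr3 was lower on PBS than on non-pregnant arrays, at -0.78 (SE 0.26, adjusted p = 0.0257), a call lost without PBS array 1 or 5 or non-pregnant array 1, 3 or 4 (-0.73 to -0.59, adjusted p = 0.0551 to 0.0671) or with median scaling (-0.53, adjusted p = 0.162). Ackr4, which binds Ccl25 and the ligands of Ccr7, had 5.25, 5.91, 6.15 and 6.39 on the PC61, 6.02, 5.88, 5.98, 5.53 and 6.16 on the PBS and 6.69, 6.62, 6.44, 7.04 and 6.79 on the non-pregnant arrays. Both pregnant groups lay below the non-pregnant arrays, at -0.80 (SE 0.20, adjusted p = 0.00509) for PBS and -0.79 (adjusted p = 0.0132) for PC61, and differed from each other by 0.01 (adjusted p = 0.992). With median scaling both calls ended, at -0.59 (adjusted p = 0.17) for PBS and -0.85 (adjusted p = 0.0927) for PC61. PC61 array 1 was the only array on which Ackr4 was not detected.

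Beside Cxcl1, the ligands higher on PBS than on non-pregnant arrays were Cxcl14, Ccl27a and Ccl25. Cxcl14, which is expressed by epithelia and decidua, had 9.92, 13.33, 13.03 and 11.04 on the PC61 arrays, 12.29, 11.70, 11.55, 11.20 and 11.32 on the PBS arrays and 10.51, 9.67, 9.27, 9.40 and 10.81 on the non-pregnant arrays. PC61 arrays 2 and 3 lay above the PBS range, array 4 lay just below it, and array 1 lay below it within the non-pregnant range. Cxcl14 was higher on PBS than on non-pregnant arrays by 1.68 (SE 0.55, adjusted p = 0.022) and on PC61 than on non-pregnant arrays by 1.90 (adjusted p = 0.0255). The first call was lost without PBS array 1 or non-pregnant array 3 or 4 (1.51 to 1.54, adjusted p = 0.0515 to 0.055). The second was lost without PC61 array 2 or 3 or non-pregnant array 3 or 4 (1.40 to 1.76, adjusted p = 0.0574 to 0.0804), with median scaling (1.83, adjusted p = 0.0776) or with a fit on the 2 groups only (1.90, adjusted p = 0.0793).

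Ccl27a, a skin and epithelial chemokine of T cells through Ccr10, had 9.50, 11.01, 11.44 and 12.05 on the PC61 arrays, 11.00, 11.61, 11.18, 11.58 and 11.93 on the PBS arrays and 8.72, 9.39, 8.62, 8.93 and 9.77 on the non-pregnant arrays. The lowest PC61 value, on array 1, lay among the non-pregnant values. It was higher on PBS than on non-pregnant arrays by 2.37 (SE 0.39, adjusted p = 0.000204) and on PC61 than on non-pregnant arrays by 1.91 (adjusted p = 0.00306), with -0.46 (adjusted p = 0.604) between PC61 and PBS. The gene has near-identical copies in the mouse genome, so its probe is uncertain as a measure of this copy alone.

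Ccl25, the thymus and gut ligand of Ccr9, was near the detection limit, at 5.01, 5.33, 5.43 and 5.92 on the PC61 arrays, 5.49, 5.14, 5.65, 5.12 and 5.67 on the PBS arrays and 5.08, 4.94, 4.51, 4.82 and 5.03 on the non-pregnant arrays. It was higher on PBS than on non-pregnant arrays by 0.54 (SE 0.19, adjusted p = 0.0289), a call lost without PBS array 1, 3 or 5 or non-pregnant array 3 or 4 (0.46 to 0.52, adjusted p = 0.0563 to 0.0734). Quantile normalization alone, median scaling, the authors' matrix and the replicate block ended it as well (0.15 to 0.61, adjusted p = 0.0546 to 0.11). Against non-pregnant arrays the PC61 group gave 0.55 (adjusted p = 0.0535), 0.70 (adjusted p = 0.0186) without PC61 array 1 and 0.47 (adjusted p = 0.0372) with array weights. Ccl28, a mucosal ligand of Ccr10 and Ccr3, had 5.39, 5.47, 5.50 and 4.64 on the PC61 arrays, 4.48, 5.12, 4.87, 5.14 and 4.66 on the PBS arrays and 4.32 to 4.57 across the non-pregnant arrays, none of which detected it. It was at least 1.05-fold higher on PC61 than on non-pregnant arrays (log2 fold change 0.81 (SE 0.20, adjusted p = 0.00677)), a bound close to no difference, and the call ended with median scaling (0.69, adjusted p = 0.0635). It stood at 0.39 (adjusted p = 0.347) between PC61 and PBS and at 0.42 (adjusted p = 0.0788) between PBS and non-pregnant arrays, where the value for PBS against non-pregnant passed without PBS array 1 or PC61 array 4 (0.42 to 0.50, adjusted p = 0.0278 to 0.0439), with array weights (0.43, adjusted p = 0.012) and in a fit on the 2 groups only (adjusted p = 0.0305).

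Cxcl12 (SDF-1), which retains blood cell precursors and guides cell movement through Cxcr4, gave opposite directions by probe. The probe of highest mean, which stood for the gene, had 10.20 to 11.98 on the PC61, 11.10 to 11.62 on the PBS and 10.29 to 11.42 across the non-pregnant arrays. It gave -0.41 for PC61 against PBS, 0.45 for PBS against non-pregnant and 0.04 for PC61 against non-pregnant arrays, and none was called. Array weights gave 0.52 (adjusted p = 0.0256) for PBS against non-pregnant arrays. The second probe was lower on PBS than on non-pregnant arrays at -2.38 (adjusted p over probes = 6.08e-06) and on PC61 than on non-pregnant arrays at -2.43. The remaining probe was lower at -1.87 (adjusted p over probes = 5.1e-05) and -2.04. The 3 probes were designed on 3 different RefSeq transcripts of the gene. With the mean of a gene's probes, Cxcl12 was lower in both comparisons, at -1.27 and -1.48. Ackr4, Ccl27a, Cxcl14 and Cxcl16 also had more than 1 probe, and their probes had the same direction wherever they were called.

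**Figure D5:**
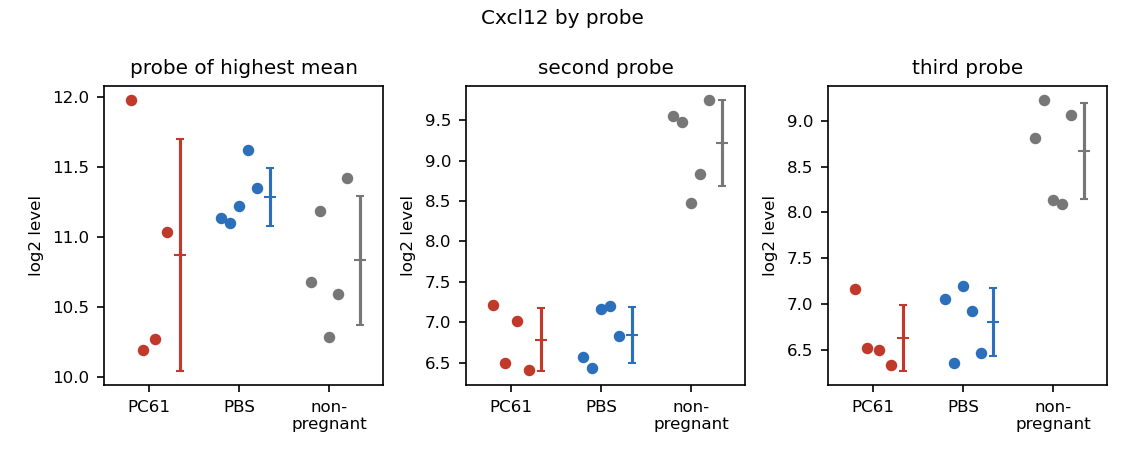
Log2 levels of Cxcl12 by probe, each point an array and each bar the mean and SD, with PC61 at the left, PBS in the middle and non-pregnant at the right of each panel. For both other probes all non-pregnant arrays lie above all pregnant arrays, and for the probe of highest mean the 3 groups overlap.

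Cxcr4, the signalling receptor of Cxcl12, was at 6.76, 7.27, 6.86 and 6.67 on the PC61 arrays, 6.90, 6.40, 6.94, 6.63 and 7.06 on the PBS arrays and 6.32, 6.25, 5.63, 5.66 and 6.21 on the non-pregnant arrays. Both pregnant groups lay wholly above the non-pregnant arrays. It was higher by 0.77 (SE 0.19, adjusted p = 0.00405) for PBS and 0.87 (adjusted p = 0.00492) for PC61, and the pregnant groups differed by 0.10 (adjusted p = 0.836). The call for PC61 ended with median scaling (0.71, adjusted p = 0.131).

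Members that are direct neighbours in the order of protein-coding genes moved alike between PBS and non-pregnant arrays, apart from Cxcl15 and Cxcl1. Cxcr2 and Cxcr1 were both higher. On chromosome 11, Ccl7 and Ccl11 are adjacent and were both lower, and so were Ccl5, Ccl9 and Ccl6, which follow each other. On chromosome 5, Cxcl15 was lower and its neighbour Cxcl1 was higher. Cxcl15 passed the detection filter through the non-pregnant arrays alone, and its call was lost without any 1 of the 5 PBS arrays. This pair is therefore weak evidence that neighbours moved apart. On chromosome 9, Ccr1l1 was higher and Ccr2, with 1 gene between them, was lower.

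Genes of the pathways around the members were read from lists by their counts and medians. Between PC61 and PBS arrays limma called 0 members of every list. The interferon gamma pathway had a median log2 fold change of 0.56, with 17 of 17 measured genes above 0, and the interleukin 4 and 13 pathway had 0.38, with 6 of 6 above 0. The median was 0.35 for 11 NF-kB genes, 0.19 for 21 genes of chemokine receptor signalling, -0.12 for 10 other chemoattractants and their receptors and -0.08 for 7 genes of polycomb repressive complex 2 and the H3K27 demethylases. Il1b, interleukin-1 beta, had a log2 fold change of 1.41 (SE 0.45), Ifngr2, a chain of the interferon gamma receptor, had 0.55 (SE 0.18) and Irgm2, an interferon-induced GTPase, had 0.80 (SE 0.31). In receptor signalling, Pik3cg, the kinase activated by G proteins in leukocytes, had 0.68 (SE 0.25), Rgs2, which shortens G protein signals, had 1.24 (SE 0.52), and Gnb1, a G protein beta subunit, had -0.63 (SE 0.21). Ccrl2, a receptor that presents chemerin without signalling, had -1.41 (SE 0.48).

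Between PBS and non-pregnant arrays the interferon gamma pathway had 1 gene higher and 11 lower of 17, with a median of -1.46, where 22.9% of all genes were higher and 23.7% lower. The counts of the other lists are to be read against the same shares. Of 21 signalling genes, 5 were higher and 7 lower, with Gnb1 at 1.14 and Pik3cg at -1.49. Of the other chemoattractants and their receptors, 3 were higher and 3 lower of 10, with Ccrl2 at 1.39, Cd74, a receptor of the cytokine Mif, at -4.08 and Fpr2, a formyl peptide receptor, at -1.54. The interleukin 4 and 13 pathway had 0 higher and 4 lower of 6, and NF-kB genes 1 higher and 2 lower of 11. In the polycomb list 2 of 7 were higher, among them Ezh2, the methyltransferase of the complex, at 1.90 (SE 0.24), and 0 were lower. Ezh2 stood at -0.60 (SE 0.26, adjusted p = 0.287) between PC61 and PBS arrays.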

How the data were processed

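The authors deposited a scanner table with 1 intensity and 1 detection p-value per probe and array, per the file headers, and a series matrix of log2 values for 16948 of its 45281 probes. No normalization had been applied to the deposited intensity values, and the sources used here do not give the scanner software or its background step. The deposited log2 values had column medians of 7.96 to 7.99 and a rank correlation of 1 with the intensities of their own arrays, so they were read as uncentred log2 signal. Their exact normalization stays unknown, and they served as an alternative.

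Intensities were processed with neqc in limma 3.58.1 under R 4.3.3: normexp background inferred from the detection p-values, an offset of 16, quantile normalization and log2. A probe was kept if its detection p fell under 0.01 on 4 or more of 14 arrays (20967 probes). Symbols came from the platform annotation: 15469 probes carried a single symbol, 5 with several were left unnamed, and 1474 matrix probes had none here. Entrez identifiers matched 15463 and changed 0 symbols. The probe of highest mean stood for a gene, and members had 33 probes. All 3 groups entered 1 limma fit (lmFit, eBayes), two-sided, with Benjamini-Hochberg adjustment over 10478 genes, and an adjusted p under 0.05 was a call. The fit had 11 residual and 3.36 prior degrees of freedom, and the median standard error was 0.227 for PC61 against PBS and 0.214 for PBS against non-pregnant arrays. The fit was checked on simulated data.

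The members and lists were chosen with earlier results of these data known. Array values are printed for members called in any comparison or named with the set. From other lists, up to 3 genes of lowest p between PC61 and PBS arrays could be named, and Foxp3 was named beyond that rule after its values were seen. Motifs were also searched after the values were seen. Alternatives changed the background step, the normalization, the source of values, the detection filter, the probe rule, the samples in the fit, array weights, a replicate block and each array in turn.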

Additional observations from a re-analysis of the deposited data

Results flagged for a closer look

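Of 81 groups of values, a member in 1 group each, 3 held an array far from the others of its group by Dixon's test, where chance alone gives about 1 in 20. Ccl28 on PC61 array 4 was the lowest of its group at 4.64, against 5.39 to 5.50 on the other 3 arrays. Ccr1l1 on PC61 array 4 was the highest of its group at 6.11, against 4.65 to 4.72 on the others. Ccr1l1 on non-pregnant array 5 was the highest of its group at 4.71, against 4.25 to 4.37, with no array of that group detected.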

How the results depend on the processing

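Counts and medians were recomputed under 23 other settings, and so was each member, except that Ccl25 and Ccr2 had a value in 22 and Ccl28 and Cxcl15 in 18, since they missed the detection filter in the rest. Members called between PC61 and PBS arrays were 1 with median scaling, 19 with array weights and 0 to 11 with 1 array left out, and the median lay between 0.17 and 0.48 with 1 array left out. Between PBS and non-pregnant arrays the median was -0.35 with quantile normalization alone, -0.59 with median scaling, -0.33 in the authors' matrix and -1.17 with the mean of a gene's probes. With 1 array left out, 19 to 25 members were called there, with medians of -0.98 to -0.71. Between PC61 and non-pregnant arrays the median was -0.65 with the mean of probes, and leaving out 1 array gave 12 to 15 calls and medians of -0.50 to 0.01. Over all genes, median scaling gave 2269 higher and 1196 lower calls between PBS and non-pregnant arrays, against 2399 and 2487. The replicate block called 0, 23 and 13 members in the 3 comparisons, with medians of 0.37, -0.80 and -0.17, and ended the calls of Ccl25 (PBS against non-pregnant), Ccr2 and Cxcr2 (PC61 against non-pregnant). The labels do not say that the numbers pair arrays: deviations of same-numbered arrays correlated at -0.175 to 0.0865 for PC61 with PBS, 0.00298 to 0.333 for PBS with non-pregnant and -0.0487 to 0.142 for PC61 with non-pregnant arrays, and not every array correlated best with its own number. No called difference of a member changed sign in any setting, while some uncalled ones did. Between PC61 and PBS arrays median scaling gave Ackr4 -0.26, Ccl25 -0.20, Cxcl14 -0.026 and Cxcr4 -0.25, array weights gave Ccl25 -0.040 and the replicate block gave Cxcl15 0.25. Between PC61 and non-pregnant arrays Cxcl12 stood at -0.10 with median scaling and -0.40 with array weights, Ccl9 at 0.077 with array weights and Cx3cl1 at -0.014 with the replicate block. The mean of probes turned Cxcl12 to -1.27 between PBS and non-pregnant and -1.48 between PC61 and non-pregnant arrays. With 1 array left out, signs also varied between PC61 and PBS arrays for Ackr4 (-0.15 to 0.24), Ccl25 (-0.16 to 0.15), Ccl27a (-0.81 to 0.040), Cxcl14 (-0.28 to 0.85) and Cxcr4 (-0.025 to 0.18). Between PC61 and non-pregnant arrays they varied for Ackr3 (-0.21 to 0.17), Ccl4 (-0.010 to 0.86), Cx3cl1 (-0.14 to 0.40) and Cxcl12 (-0.33 to 0.26). The causes were not tested.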
